A study of Mus musculus with 9 samples.

Results

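A set of 9 genes of T cell co-stimulation and its checkpoints was described in 3 sorted mouse cell populations: the B7 family ligands Cd80, Cd86, Icosl, Cd274 and Pdcd1lg2, the receptor Cd40, the maturation molecule Cd83 and the immunoglobulin superfamily receptors Cd28 and Btla. They are the 9 of 19938 measured genes that a fixed list of symbols names, each taken at its brightest probe set with that single symbol. All 9 were found, and none was dropped for a low level. The set was selected on its log2 levels across the 3 populations, which were already known, so those levels and their differences are a description and carry no test. Tests are given only for 71 other genes of the same pathways and for cell type markers. Those lists were also chosen with earlier results of these data known.

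Lymph node macrophages of the T cell zone (TZM) were set beside microglia of the brain and beside CD8a+ dendritic cells (DC), with 3 biological replicates and 3 arrays for each. All came from CX3CR1 gfp+/- mice, in which a copy of the fractalkine receptor gene is replaced by a green fluorescent reporter, so every population carries that change and no wild-type group was used here. TZM were sorted as GFP-high, MertK+, CD11b+ and CD169 negative, microglia as GFP-high, CD11b+ and CD45+, and DC as CD8+ cells high in CD11c and MHC class II that lacked CD64. The labels give the lymph node as the source of the DC in the sample fields and the spleen in the sorting text. Age, sex and pooling of animals are not given in the sources used here. None of the 9 genes encodes a marker of these gates.

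Values are log2 expression levels by robust multi-array averaging (RMA), so a difference of 1 is a doubling. Array medians over all genes ran from 4.90 to 5.02, and the number of arrays limits the precision. No call of detection was used, so a level near the low end of the scale is not separated from background, and a difference against it understates the change. By list mean, the markers of macrophages, CD8a+ DC and microglia followed the labels, while some markers of other cell types were also high. Macrophage markers averaged 10.38 to 10.74 in TZM, 11.23 to 11.34 in microglia and 5.21 to 5.52 in DC, and markers of CD8a+ DC averaged 6.01 to 6.13, 5.65 to 5.69 and 9.87 to 9.96, gate genes among them. Microglia markers averaged 6.44 to 6.57, 11.03 to 11.17 and 4.80 to 4.93 in the same order. Of these, Tmem119 and P2ry12 were at 8.86 to 9.40 and 9.73 to 9.87 in TZM. The choroid plexus gene Ttr was at 12.15, 5.48 and 11.83 in microglia, and at most 4.47 in TZM and 4.29 in DC. The part of such RNA in the levels was not tested.

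A naive T cell needs a signal through its antigen receptor and a further signal through CD28, which binds CD80 and CD86 on the antigen-presenting cell. CTLA-4 competes for the same ligands and dampens the response. ICOS ligand acts on activated T cells, PD-L1 (Cd274) and PD-L2 (Pdcd1lg2) inhibit through PD-1, and BTLA is an inhibitory receptor whose ligand is HVEM (Tnfrsf14). CD40 receives T cell help, and dendritic cells raise CD40, CD80, CD86 and CD83 as they mature.

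The 9 genes differed in their order over the populations. Cd86, Cd40 and Cd274 were at near levels in TZM and DC and lower in microglia, and Cd80 in TZM lay between microglia and DC. Icosl and Cd83 were lowest in TZM. Cd28 was high in TZM alone, and Btla was high in DC alone. Pdcd1lg2 read 6.16 or less in every array, with the highest mean in TZM and the lowest in microglia. By the rule of a difference of at least 1 with arrays that do not overlap, TZM were higher than microglia for 4 of the 9 genes and lower for 2, where 4.31% and 3.46% of all genes passed in these directions. Against DC, TZM were higher for 1 gene and lower for 3 (4.77% and 4.06% of all genes), and microglia were higher than DC for 0 and lower for 4 (5.2% and 6.04%). The choice of the genes used these contrasts, so nothing is read from these counts. The 3 comparisons share arrays. Cd80 and Cd86 lay just under the minimum of 1 for TZM minus microglia. Cd80 passed it without TZM replicate 1, TZM replicate 2 or microglia replicate 3 (1.03, 1.02 and 1.04), and Cd86 without TZM replicate 3 (1.03).

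The median difference over the 9 genes was 0.99 for TZM minus microglia, -0.26 for TZM minus DC and -0.89 for microglia minus DC. Over all genes the medians were 0.01, 0.02 and 0.01.

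**Figure D1:**
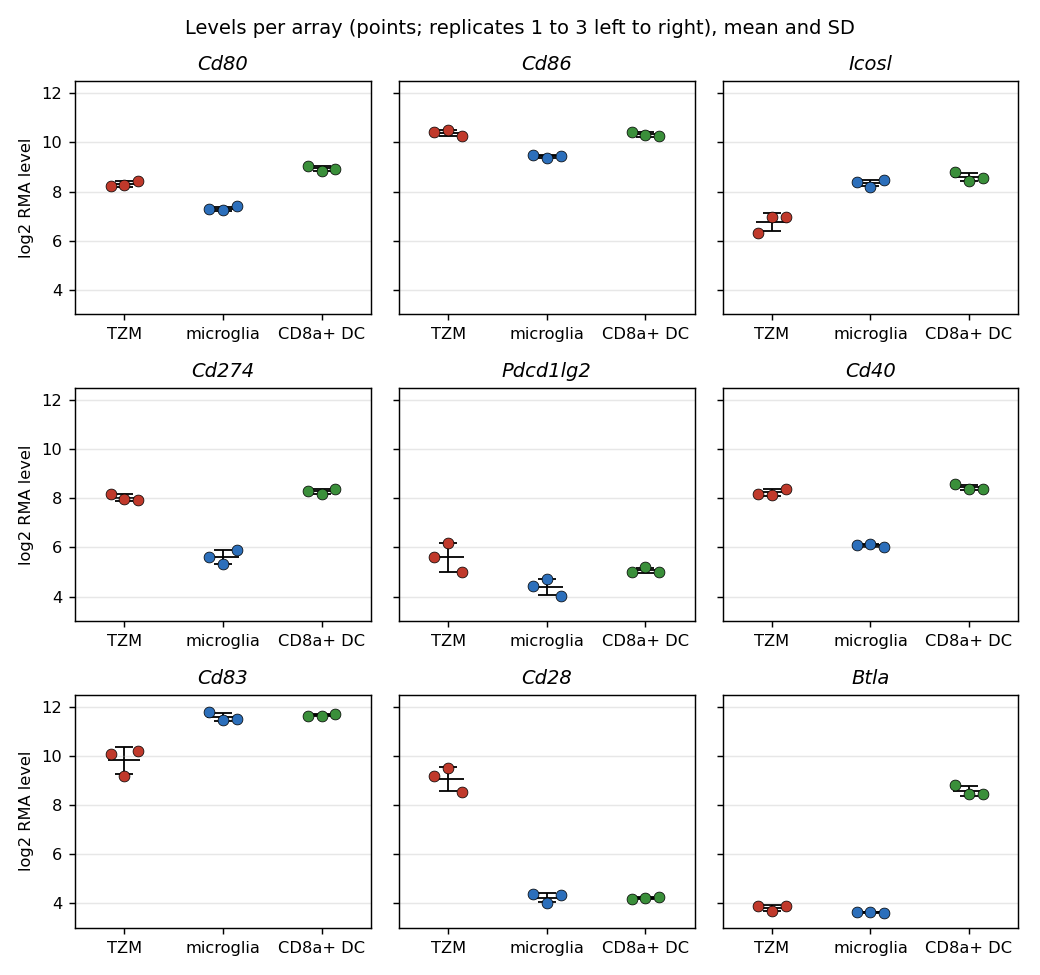
Log2 RMA level (y axis) of each of the 9 genes in the 3 TZM, 3 microglia and 3 CD8a+ DC arrays (x axis). Points are arrays, and the black mark and bar are the mean and SD (n = 3). Cd28 stands high only in TZM (8.54 to 9.50) and Btla only in CD8a+ DC (8.45 to 8.82).

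Among the ligands of CD28, Cd80 kept an order of the populations without overlap. Its level was 8.21, 8.25 and 8.43 in the TZM arrays, 7.28, 7.24 and 7.40 in microglia and 9.06, 8.85 and 8.91 in DC. Every TZM array lay above every microglia array and below every DC array. Means were 8.30 ± 0.12, 7.31 ± 0.08 and 8.94 ± 0.11 (SD, n = 3 each). The difference was 0.99 (SE 0.08) for TZM minus microglia, -0.64 (SE 0.09) for TZM minus DC and -1.63 (SE 0.08) for microglia minus DC.

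Cd80 was the only one of the 9 genes with more than 1 single-symbol probe set. The dimmer of its 2 probe sets averaged 7.64 ± 0.29 in TZM, 6.90 ± 0.53 in microglia and 8.61 ± 0.22 in DC, the same order of means. Its TZM and microglia arrays overlapped, since microglia replicate 3 was at 7.48 and TZM replicate 3 at 7.39.

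Cd86 showed little separation between TZM and DC. Its level was 10.43, 10.49 and 10.25 in TZM, 9.48, 9.38 and 9.45 in microglia and 10.44, 10.28 and 10.27 in DC. The TZM and DC arrays overlapped, with a difference of 0.06 (SE 0.09), and every microglia array lay below them. The difference was 0.96 (SE 0.08) for TZM minus microglia and -0.89 (SE 0.06) for microglia minus DC, so both CD28 ligands were roughly a doubling apart between the macrophage populations.

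Icosl, the ligand of ICOS, ran in another order. It was at 6.33, 6.97 and 6.96 in TZM, 8.39, 8.19 and 8.45 in microglia and 8.78, 8.43 and 8.56 in DC. The TZM arrays were lowest with no overlap, whereas the microglia and DC arrays overlapped. TZM minus microglia was -1.59 (SE 0.23) and TZM minus DC was -1.84 (SE 0.24), or 3.01-fold and 3.57-fold lower. Microglia minus DC was -0.25 (SE 0.13).

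Of the ligands of PD-1, Cd274 was at 8.18, 7.99 and 7.93 in TZM, 5.61, 5.33 and 5.89 in microglia and 8.30, 8.19 and 8.39 in DC. The microglia arrays stood apart, all under 6. TZM minus microglia was 2.43 (SE 0.18), a 5.37-fold difference, and microglia minus DC was -2.69 (SE 0.17), a 6.44-fold one. The TZM and DC arrays did not overlap, but the highest TZM and the lowest DC array read 8.18 and 8.19, and TZM minus DC was -0.26 (SE 0.10).

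Pdcd1lg2 was at 5.61, 6.16 and 5.01 in TZM, 4.41, 4.72 and 4.03 in microglia and 5.01, 5.19 and 5.01 in DC. Only TZM replicate 2 exceeded 6, and the TZM and DC arrays overlapped. TZM replicate 3 and DC replicates 1 and 3 read the same value. TZM minus microglia was 1.20 (SE 0.39), and without TZM replicate 2 it was 0.92, under the minimum of 1. TZM minus DC was 0.52 (SE 0.34), and 0.24 without that replicate.

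TZM replicate 2 also carried the most RNA of the neutrophil gene S100a8, at 9.28 against 5.89 and 7.32 in the other TZM arrays, and of the salivary gene Bpifa2, at 11.998 against 10.24 and 9.29. All TZM arrays stood high in Bpifa2, which was at 3.95 to 4.11 in microglia and 3.70 to 4.45 in DC. Of 4 salivary markers, 3 were called higher in TZM against both, and the 4 averaged 6.68 to 8.51 in TZM, 3.44 to 3.47 in microglia and 3.495 to 3.72 in DC. Of the markers of neutrophils, the 8 averaged 4.59 to 5.62 in TZM, 4.02 to 4.09 in microglia and 4.11 to 4.25 in DC, and Ly6g was at 3.13 to 3.24 in TZM. The part of such RNA in the level of Pdcd1lg2 was not tested.

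Cd274 and Pdcd1lg2 lie on mouse chromosome 19 with 1 other annotated gene between them. Microglia minus DC was -0.68 (SE 0.21) for Pdcd1lg2 and -2.69 for Cd274. Pdcd1lg2 read low in both populations, at means of 4.39 in microglia and 5.07 in DC, so its difference may be understated. Cd80, Cd86 and Btla share chromosome 16, farther apart. The 250 bases before the annotated start were held for 5 of the 9 genes (Icosl, Cd80, Btla, Cd274 and Pdcd1lg2) in the RefSeq table of build GRCm38.p6. The pair of PD-1 ligand genes is shown because these neighbours differ in the size of that difference, Cd80 because its 3 populations did not overlap, and Btla because its RNA was high in DC alone. Each is written 5′ to 3′ on the plus strand, at chr19:29367188-29367437, chr19:29410669-29410918, chr16:38458683-38458932 and chr16:45224087-45224336 in the order of the lines, and capitals mark the motifs found.
Cd274: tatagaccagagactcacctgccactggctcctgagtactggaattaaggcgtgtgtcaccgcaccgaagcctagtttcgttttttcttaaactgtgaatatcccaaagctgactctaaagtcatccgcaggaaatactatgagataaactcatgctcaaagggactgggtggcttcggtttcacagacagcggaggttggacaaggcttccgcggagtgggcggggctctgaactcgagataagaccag
Pdcd1lg2: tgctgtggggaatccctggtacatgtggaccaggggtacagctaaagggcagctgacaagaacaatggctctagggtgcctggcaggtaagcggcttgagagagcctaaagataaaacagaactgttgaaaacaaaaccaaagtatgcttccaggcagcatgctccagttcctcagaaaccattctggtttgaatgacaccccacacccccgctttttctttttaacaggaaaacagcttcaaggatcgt
Cd80: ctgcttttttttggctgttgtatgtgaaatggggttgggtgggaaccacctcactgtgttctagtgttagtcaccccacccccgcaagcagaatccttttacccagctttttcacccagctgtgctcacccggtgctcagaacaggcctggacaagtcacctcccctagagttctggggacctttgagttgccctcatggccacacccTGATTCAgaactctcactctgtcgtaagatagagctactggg
Btla: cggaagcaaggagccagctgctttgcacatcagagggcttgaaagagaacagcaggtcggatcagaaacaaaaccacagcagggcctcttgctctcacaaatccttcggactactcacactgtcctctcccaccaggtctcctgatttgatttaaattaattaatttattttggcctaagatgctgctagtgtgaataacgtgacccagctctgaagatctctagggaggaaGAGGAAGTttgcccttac

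In all 6 motifs were searched on both strands: the interferon-stimulated response element (GAAA, 2 free bases, GAAA), the gamma-activated site TTCNNNGAA, a kappaB site (GGGA, 1 free base, TTTCC), the PU.1 site GAGGAAGT, the ETS-IRF composite element (GGAA, 2 free bases, GAAA) and the AP-1 site TGANTCA. The composite element can overlap the first of these. Btla held the PU.1 letters from position -18, counted from its start, as did 2.44% of 32841 promoters of the same length. Cd80 held the AP-1 letters from position -42, as did 6.75% of promoters. The 6 motifs had no match in the windows of Cd274, Pdcd1lg2 or Icosl, and the other 4 motifs are in 2.98%, 7.02%, 0.356% and 2.30% of promoters. The window of Icosl had the most G and C, at 68.8%, against 47.2% to 52.8% in the others. These matches describe letters, not binding.

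Cd40, which triggers NF-kB signalling when T cells engage it, was ordered like Cd274. It was at 8.18, 8.16 and 8.39 in TZM, 6.10, 6.15 and 6.03 in microglia and 8.58, 8.39 and 8.38 in DC. TZM and DC arrays overlapped, with a difference of -0.21 (SE 0.10), and all microglia arrays lay more than 2 units below both. TZM minus microglia was 2.15 (SE 0.08), a 4.44-fold difference, and microglia minus DC was -2.36 (SE 0.07), a 5.13-fold one.

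The mean over markers of CCR7+ mature DC had the same order as the means of Cd80, Cd40 and Cd274. Cd86 and Cd83 did not share it, and the TZM and DC arrays overlapped for Cd40 and nearly met for Cd274. The 6 measured markers averaged 7.38 to 7.48 in TZM, 5.72 to 5.74 in microglia and 8.76 to 8.83 in DC. Among them Ccr7 was at 8.91 to 9.04 in TZM and Ccl22 at 7.78 to 8.28, and 2 of the 6 did not follow that order. Fscn1 was at 9.33 to 9.67 in TZM and 9.92 to 10.26 in microglia, and Ccl17 was highest in TZM, at 5.70 to 6.16 against 4.91 to 4.97 in DC. All 10 markers of CD8a+ DC were called lower in TZM than in DC, with Xcr1 at 4.29 to 4.55 and Clec9a at 4.57 to 5.18, against 10.65 to 10.74 and 10.942 to 11.003 in DC. In TZM 4 of the 10 (Batf3, Wdfy4, Cadm1 and Naaa) read 6 or more in all arrays, between 6.82 and 8.14. The part of other DC in the TZM levels was not tested. In such bulk samples fewer expressing cells and less RNA per cell cannot be told apart.

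Cd83, a maturation marker that counters the ubiquitin ligase MARCH1 and so keeps CD86 and class II on the surface, was not ordered like the other maturation genes. It was at 10.08, 9.18 and 10.20 in TZM, 11.79, 11.48 and 11.52 in microglia and 11.65, 11.62 and 11.70 in DC. Every TZM array lay below every other array, and microglia and DC overlapped, with a difference of -0.06 (SE 0.10). TZM minus microglia was -1.78 (SE 0.33) and TZM minus DC was -1.84 (SE 0.32). TZM replicate 2 was the lowest, and without it the differences were -1.46 and -1.52.

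**Figure D2:**
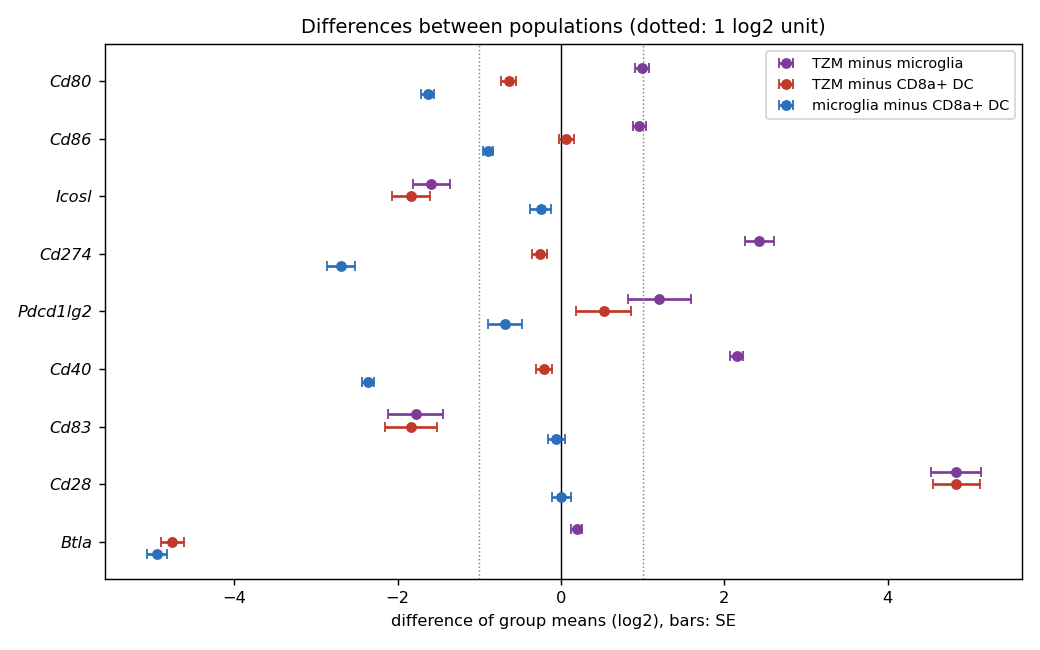
Differences of group means (x axis, log2) for each of the 9 genes (y axis), with bars for the SE from the spread of the 3 arrays in each group. Cd40 and Cd274 lie past 2 for TZM minus microglia and near 0 for TZM minus CD8a+ DC, while Cd28 lies at 4.84 in both.

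The receptor genes split most sharply. Cd28, whose product is best known as the co-stimulatory receptor of T cells, was at 9.19, 9.50 and 8.54 in TZM, 4.37, 4.02 and 4.32 in microglia and 4.20, 4.22 and 4.28 in DC. All TZM arrays stood more than 4 units above all others, which were low and overlapped each other. TZM minus microglia was 4.84 (SE 0.30) and TZM minus DC was 4.84 (SE 0.28), or 28.5-fold and 28.7-fold.

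The lymph node T cell zone is full of T cells, so T cell markers are given beside Cd28. The 11 measured markers averaged 4.98 to 5.25 in TZM, 4.56 to 4.59 in microglia and 4.71 to 4.81 in DC, and 9 of them were under 6 in every TZM array. The others were Cd3e, at 5.97 to 6.38 in TZM, and Thy1, at 5.87 to 7.02. Against DC only Thy1 was called higher in TZM, by 1.27 (limma adjusted p = 0.013), and against microglia Cd3d, Cd3g and Thy1 were, by 1.20, 1.15 and 1.32.

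Within TZM, replicate 3 had the lowest Cd28. It was the highest TZM array for 7 of the 11 T cell markers and the lowest for 2 (Cd2 and Themis), and replicate 2, with the highest Cd28, was the highest for 2 (Cd2 and Cd5) and tied with replicate 1 for Themis. For Cd3d, a subunit of the T cell receptor complex, the arrays read 4.81, 4.78 and 5.10, and TZM minus DC was 0.79 (SE 0.12) for Cd3d and 4.84 for Cd28. The part of T cell RNA in the Cd28 level was not tested.

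**Figure D3:**
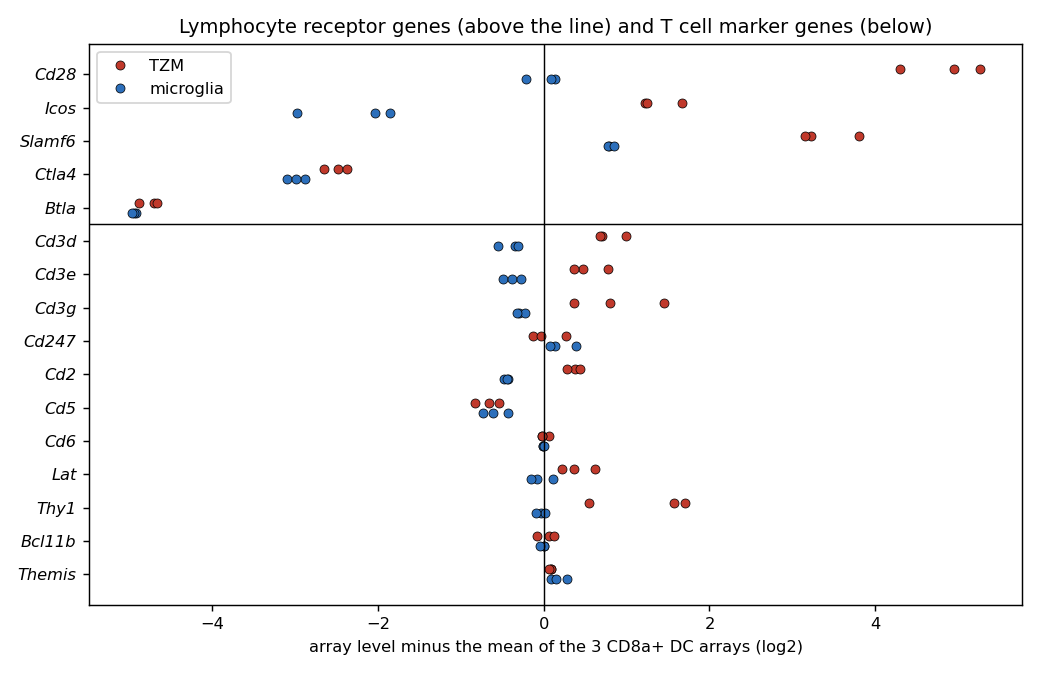
Level of each TZM and microglia array minus the mean of the 3 CD8a+ DC arrays (x axis, log2) for 5 lymphocyte receptor genes and 11 T cell markers (y axis). Cd28 lies more than 4 above the CD8a+ DC mean in TZM, and each T cell marker lies less than 2 above it.

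Btla was the reverse case. It was at 3.87, 3.69 and 3.91 in TZM, 3.66, 3.63 and 3.61 in microglia and 8.82, 8.47 and 8.45 in DC. All DC arrays stood more than 4 units above the rest, and both macrophage populations read below 4. TZM minus DC was -4.76 (SE 0.14) and microglia minus DC was -4.95 (SE 0.12), or 27.0-fold and 30.9-fold lower. B cells also make BTLA. Of B cell markers, Ms4a1 was at 4.53 to 5.21 in TZM and 6.84 to 7.42 in DC, while Cd79a, Pax5 and Ebf1 were at 3.87 to 4.21, 4.24 to 4.43 and 3.75 to 3.78 in DC. Cd79b was at 8.27 to 9.86 in TZM and 6.43 to 7.01 in DC, and Cd22 at 7.16 to 7.92 and 5.16 to 5.67. All 9 measured B cell markers averaged 5.38 to 5.45 in TZM, 4.43 to 4.60 in microglia and 4.81 to 4.83 in DC. Of them 7 were under 6 in every DC array. The 5 measured markers of plasmacytoid DC averaged 6.64 to 6.80 in TZM, 7.05 to 7.23 in microglia and 7.63 to 7.71 in DC. Among these, 3 were called lower and 1 higher in TZM than in DC. The part of B cells or plasmacytoid DC in the Btla level was not tested.

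The spread among arrays differed between genes. In TZM the SD was 0.37 to 0.58 for Icosl, Cd28, Cd83 and Pdcd1lg2 and 0.12 to 0.13 for the other 5 genes. In DC it stayed between 0.04 and 0.21 for all 9.

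Genes with the profile most like each of these were found by the Euclidean distance of mean-centred levels over the 9 arrays. Nearest to Cd80 was D16Ertd472e (0.32), to Cd86 Eif5b (0.22) and to Icosl Map4k5 (0.35). Cd40 was nearest to the thioredoxin gene Txn1 (0.35), and Tmem123 was the second for Cd40 (0.54) and the first for Cd274 (0.41). Cd28 was nearest to the fatty acid binding protein gene Fabp1 (0.75) and the lysosomal channel gene Mcoln2 (0.81), and Btla to Hepacam2 (0.36). Cd83 was nearest to Endod1 (0.68) and the transcription factor gene Egr2 (0.71), and Pdcd1lg2 to Tmem205 (0.69). The distance is a description over 9 arrays that share 3 group means.

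The other genes of the pathways were tested in a single limma fit over all 19938 genes, and a gene was called at an adjusted p under 0.05 with a difference of at least 1. Between TZM and microglia 10 of the 71 rose and 2 fell in TZM, where 4.25% and 3.4% of all genes did. Between TZM and DC 10 rose and 11 fell in TZM (4.71% and 4.03% of all genes). Between microglia and DC 10 rose and 12 fell in microglia (5.15% and 6.01%). These lists too were chosen with earlier results of these data known, so nothing is read from the counts beside the shares of all genes. The median differences of the 71 genes were 0.08, 0.03 and -0.13.

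The receptors that bind the described ligands were tested first. Ctla4, the inhibitory receptor for CD80 and CD86, was at 4.61 ± 0.14 in TZM, 4.12 ± 0.11 in microglia and 7.11 ± 0.08 in DC. TZM minus DC was -2.51 for Ctla4 (SE 0.09, limma adjusted p = 3.7e-07), and the difference from microglia of 0.48 was under the minimum. Icos, the receptor for ICOS ligand, was at 9.28 ± 0.25 in TZM, 5.60 ± 0.60 in microglia and 7.90 ± 0.27 in DC. It rose in TZM against microglia by 3.67 (SE 0.29, adjusted p = 3.8e-05) and against DC by 1.38 (SE 0.29, adjusted p = 0.0093). Of the 3 populations, TZM were highest in Icos and lowest in its ligand Icosl. The part of T cell RNA in the Icos level was not tested.

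Pdcd1, which encodes PD-1, was at 4.99 ± 0.29 in TZM, 4.88 ± 0.13 in microglia and 5.29 ± 0.29 in DC and was not called in any comparison (limma adjusted p = 0.15 to 0.75). Lag3, an inhibitory receptor for class II, was at 8.52 ± 0.03 in TZM, 9.11 ± 0.20 in microglia and 6.64 ± 0.44 in DC. It rose against DC by 1.88 in TZM and by 2.47 in microglia. In all, 1 of 9 lymphocyte receptors rose and 0 fell in TZM against microglia, and 2 rose and 1 fell against DC.

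Tnfrsf14, the ligand of BTLA, was at 8.37 ± 0.26 in TZM, 7.53 ± 0.17 in microglia and 8.07 ± 0.04 in DC, with no call. Its list of 10 other checkpoint ligands and receptors had 0 calls between TZM and microglia in either direction by limma, where 3 genes had an unadjusted p under 0.05. Against DC 2 rose and 2 fell in TZM. Lgals9, which encodes the lectin galectin-9, was at 9.87 ± 0.30 in TZM, 9.89 ± 0.12 in microglia and 6.79 ± 0.17 in DC, and rose in TZM against DC by 3.08 (SE 0.15, adjusted p = 2.1e-06).

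Of 8 other B7 and butyrophilin genes, 1 fell and 0 rose in TZM against microglia. This was Vsir, which encodes the inhibitory ligand VISTA, at 7.57 ± 0.33 in TZM, 10.25 ± 0.13 in microglia and 7.67 ± 0.25 in DC (TZM minus microglia -2.68, SE 0.18, limma adjusted p = 1.5e-05). Cd276, or B7-H3, was at 6.43 ± 0.03 in TZM, 7.08 ± 0.13 in microglia and 6.04 ± 0.10 in DC, and rose only in microglia against DC, by 1.03. That call ended without microglia replicate 3 (0.97) and without DC replicate 1 (0.98). Microglia, the lowest in Cd274, were the highest of the 3 in Vsir and Cd276.

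Of 7 TNF family ligands, Tnfsf15, which encodes the co-stimulator TL1A, was at 7.39 ± 0.20 in TZM, 4.63 ± 0.08 in microglia and 4.70 ± 0.08 in DC. It rose in TZM by 2.77 against microglia (limma adjusted p = 4.8e-07) and by 2.69 against DC (adjusted p = 4.5e-07). It was the 1 ligand called higher in TZM in both comparisons.

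Of 10 adhesion and SLAM family genes, 5 rose and 0 fell in TZM against microglia (4.25% and 3.4% of all genes). Against DC 3 rose and 3 fell (4.71% and 4.03%), and nothing is read from these counts. Slamf6, a self-binding receptor, was at 9.01 ± 0.35 in TZM, 6.42 ± 0.04 in microglia and 5.62 ± 0.35 in DC (TZM minus DC 3.40, SE 0.21). Slamf7, of the same family, was at 8.36 ± 0.13, 4.61 ± 0.33 and 10.91 ± 0.07 in the same order. Cd84 was at 9.65 ± 0.19 in TZM, 9.83 ± 0.16 in microglia and 4.78 ± 0.41 in DC, a rise of 4.87 in TZM and 5.05 in microglia over DC.

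Cd24a, a co-stimulatory surface molecule, was at 7.16 ± 0.88 in TZM, 4.12 ± 0.35 in microglia and 10.98 ± 0.10 in DC. Cd244a, the receptor for CD48, was at 5.14 ± 0.20 in TZM, 5.002 ± 0.039 in microglia and 8.55 ± 0.19 in DC, and fell against DC by 3.41 in TZM and by 3.55 in microglia.

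Downstream of CD40, 3 of 14 signalling genes rose and 0 fell in TZM against microglia, and 1 rose and 3 fell against DC. Traf1, an adaptor of TNF family receptors, was at 7.02 ± 0.00457 in TZM, 4.73 ± 0.07 in microglia and 9.02 ± 0.24 in DC (TZM minus microglia 2.29, TZM minus DC -1.99, limma adjusted p = 2.0e-06 and 3.6e-06). Its order was that of Cd80. Relb, an NF-kB subunit of mature DC, was at 6.95 ± 0.18 in TZM, 6.39 ± 0.22 in microglia and 7.29 ± 0.07 in DC with no call, though microglia minus DC was -1.03 and called without microglia replicate 2.

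On the interferon gamma route to Cd274, 0 of 7 genes were called between TZM and microglia by limma, although 5 had an unadjusted p under 0.05, and 1 fell against DC. Of 6 genes for surface turnover and phosphatases, Cmtm6, which protects PD-L1 from breakdown, was at 9.11 ± 0.49 in TZM, 11.10 ± 0.15 in microglia and 8.92 ± 0.06 in DC. It fell in TZM against microglia by 1.99 (SE 0.21, adjusted p = 0.00024), opposite to Cd274. Marchf1, the ligase that CD83 opposes, was at 7.78 ± 0.06 in TZM, 7.74 ± 0.17 in microglia and 8.07 ± 0.01 in DC, with no call.

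**Figure D4:**
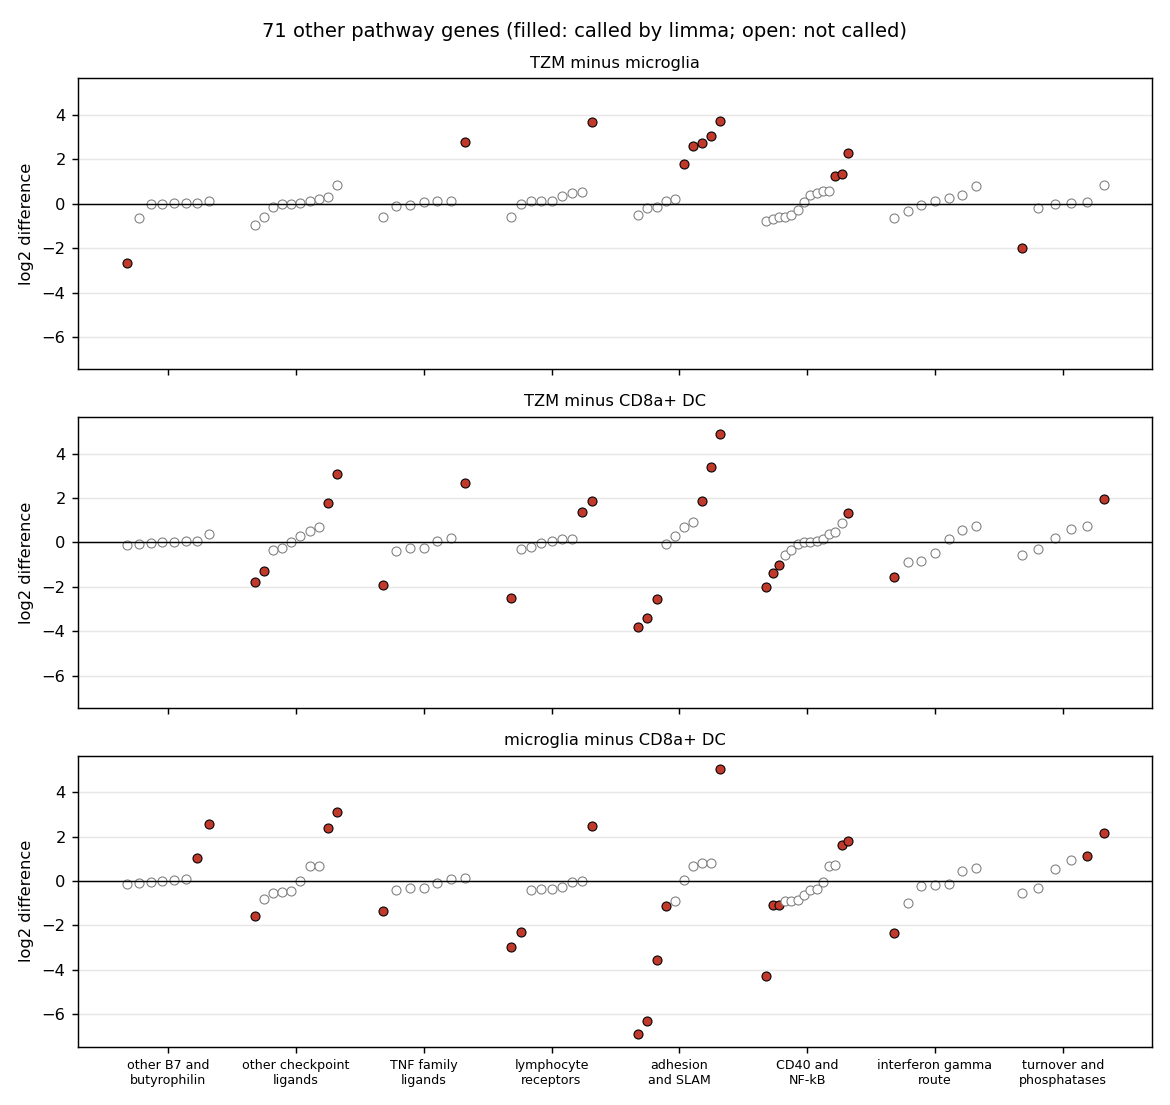
Log2 difference (y axis) of the 71 other pathway genes by list (x axis) in the 3 comparisons, each point a gene, filled where called by limma. Against microglia 10 genes are called higher and 2 lower in TZM (4.25% and 3.4% of all genes). Against CD8a+ DC 10 are called higher and 11 lower (4.71% and 4.03%). The lists were chosen with earlier results known, so nothing is read from these counts.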

How the data were processed

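Gene expression was measured on 9 one-colour Affymetrix mouse arrays, 3 for each of 3 sorted populations, and the labels call the replicates biological. The deposited table holds log2 expression values that the authors made with robust multi-array averaging (RMA) in Affymetrix Expression Console 1.3.1, per the submitters' processing notes. RMA normalizes arrays to a common distribution, so a shift shared by most genes would be removed, and it compresses differences of dim probe sets. No scanner intensities were used, so no call against background was made.

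Of 35556 probe sets, 21789 carried a single symbol in the platform annotation, 1621 several and 12146 none. The 21698 single-symbol sets that matched the RefSeq gene table by Entrez ID took its symbol. The brightest set was kept for each of 999 genes with more than 1, which left 19938 genes, and no level filter was applied. The same value recurred in 3 or more arrays for 6029 genes, Pdcd1lg2 among them. Within TZM, replicates 1 and 2 read the same for Cd276, and replicates 1 and 3 for Lag3, Slamf7 and Cmtm6. The SDs and SEs of such genes may understate the spread.

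The 9 genes and all lists were chosen with earlier results of these data known. The 9 genes are described by array values, means, SDs and differences with an SE from the SDs of both groups. Of 74 other pathway genes 71 matched, and the rest were not analysed here. They were tested with limma 3.58.1 (lmFit and eBayes) in R 4.3.3, 9 arrays in 1 fit with group as the only term, and p-values were adjusted by Benjamini-Hochberg over 19938 genes. A call needed an adjusted p under 0.05 and a difference of at least 1. SEs of pathway and marker genes come from that fit. Genes were named by rule: for each comparison and direction the 4 called pathway genes with the largest difference, plus 9 fixed genes. The 2 most alike genes were found for each described gene, and 1 or 2 of them are named.

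On simulated data with 200 changed genes among 19938, the fit recovered 92% of changes of 1.5 and 97% of changes of 2 for TZM minus microglia with 0 false calls. For TZM minus DC it recovered 90% and 97% with 1 false call. The simulation was a single draw of independent normal noise, with changes in TZM only. It does not cover changes near the minimum difference, repeated values or the larger number of genes called in the data. The promoter motifs were chosen after the sequences were seen. Alternatives covered scaling, probe set choice, level filter, array weights, the replicate block and each left-out array. Same-numbered replicates did not deviate together (correlations -0.15 to 0.13), so the numbers were not used as a block.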

Additional observations from a re-analysis of the deposited data

How the results depend on the processing

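Among the named pathway genes, no called difference changed sign under any alternative run. The call of Cd276 for microglia minus DC ended without microglia replicate 3 (0.97) or DC replicate 1 (0.98), and Relb was called there without microglia replicate 2 (-1.03). The counts of called genes stayed at 12 to 13 for TZM minus microglia, 20 to 22 for TZM minus DC and 21 to 24 for microglia minus DC when each array was left out, against 12, 21 and 22. With the replicate number as a block they were 12, 21 and 22. Without the minimum difference they were 31 (19 higher, 12 lower), 37 (19 and 18) and 47 (21 and 26), which follows from the looser rule. The differences that changed sign were not called. For TZM minus microglia, Marchf1 was -0.033 after quantile scaling and between -0.030 and 0.13 with an array left out, Pdcd1 between -0.041 and 0.24, and Lgals9 0.011 with array weights and between -0.16 and 0.14 with an array left out. For TZM minus DC, Vsir was 0.060 with array weights and between -0.25 and 0.078 with an array left out. The cause was not tested. The mean of its probe sets gave Cd80 0.87 for TZM minus microglia and -0.81 for TZM minus DC. Quantile scaling gave Cd86 0.85 for TZM minus microglia and -0.79 for microglia minus DC, and gave Cd83 0.11 for microglia minus DC. For dim genes no value separates the level from background.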

Other observations

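Some further pathway genes were picked after their values were seen. Havcr2, which encodes TIM-3, was at 9.45, 8.43 and 9.19 in TZM, 10.01, 10.14 and 9.82 in microglia and 10.83, 10.81 and 10.76 in DC, with TZM minus DC at -1.77 (SE 0.23, limma adjusted p = 0.00063). Galectin-9, a ligand described for TIM-3, ran the other way between TZM and DC. Marchf8, a ubiquitin ligase related to MARCH1, was at 6.45, 6.20 and 6.40 in TZM, 5.59, 5.59 and 5.31 in microglia and 4.28, 4.27 and 4.56 in DC. It rose against DC by 1.98 in TZM (adjusted p = 5.4e-06) and by 1.13 in microglia (adjusted p = 0.00012).

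Of the described genes, TZM replicate 2 was the highest TZM array for Cd28, Pdcd1lg2, Cd86 and Icosl and the lowest for Cd83, Cd40 and Btla. Among pathway genes picked after their values were seen, it had the highest Icos and Cd24a and the lowest Cmtm6. Cd24a was at 6.997, 8.11 and 6.37 in TZM (SD 0.88). Without that replicate TZM minus microglia was 4.62 for Cd28. Whether the RNA that sets this array apart bears on these genes was not tested.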
